A study of Rattus norvegicus with 15 samples.

Results

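Perivascular nerve and Schwann cell genes were followed in rat mesenteric artery and kidney cortex, as 5 genes of sympathetic neurons (Th, Ddc, Dbh, Snap25 and Npy) and 3 genes of Schwann cells (Mbp, Sox10 and S100b). They were chosen by symbol, and the 8 genes are 8 of the 34357 named rows of the expression table. RNA-seq of total RNA was done in Dahl SS rats, an inbred salt-sensitive strain that becomes hypertensive on a high-salt diet. The deletion rats, titled knockout, lack a noncoding interval of about 30.4 kb at chr2:60825801-60856216 (rn7), which corresponds to the human rs1173771 linkage region, and the wild-type rats carry it on the same strain background. There were 4 deletion and 4 wild-type mesenteric arteries, and 4 deletion and 3 wild-type kidney cortices, all titled male. Age, diet, the number of copies deleted and the number of founder lines were not given in the labels, and no label ties a library to its own animal, so p-values measure only how libraries differ among themselves, which may be technical. The study sought genes whose RNA the deletion altered in either tissue.

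The mesenteric artery is supplied by postganglionic sympathetic axons that run in the outer coat of the vessel, wrapped by Schwann cells. The cell bodies of these neurons lie in ganglia outside the vessel, so a dissected artery holds axons and little of the neuron's own RNA, while its Schwann cells are present whole with their nuclei. Tyrosine hydroxylase (Th), aromatic amino acid decarboxylase (Ddc) and dopamine beta-hydroxylase (Dbh) make noradrenaline in sequence, Snap25 is a membrane protein that drives vesicle fusion, and neuropeptide Y (Npy) is released beside noradrenaline and constricts vessels. Mbp encodes a structural protein of compact myelin, Sox10 a transcription factor that specifies and maintains the Schwann lineage, and S100b a calcium-binding protein abundant in Schwann cells.

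Values are deposited FPKM, that is fragments scaled by gene length and library size, and levels of different genes are compared on that scale. Depth is unknown because no read counts were used. Tissue identity was as labelled: Acta2, a smooth muscle actin, was at 512 to 1074 FPKM in arteries and at 7.41 to 18.7 FPKM in kidneys, whereas the proximal tubule transporter Slc34a1 was at 0 to 1.06 FPKM in arteries and at 892 to 1187 FPKM in kidneys. The arteries carried surrounding fat, with Adipoq at 530 to 1053 FPKM, against 2.23 to 4.07 FPKM in kidneys. Some arteries stood apart in other cells. Summed lymphocyte markers reached 86.7 FPKM in deletion artery 2 and 119.6 FPKM in wild-type artery 3, against at most 33.6 FPKM in the other 6. Intestinal epithelial markers summed to 25.5 FPKM in wild-type artery 1 and to at most 2.44 FPKM in the rest, and haemoglobin genes took 33.0% of all FPKM in wild-type artery 4, against 1.61% to 12.0% in the others. Kidney wild-type 3 went against its male title, with Xist at 81.1 FPKM, against 0.0989 to 1.30 FPKM in the other 14 libraries, and the Y-linked Eif2s3y at 0, against 24.1 to 39.6 FPKM.

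In the artery the Schwann cell genes stood far above the genes of noradrenaline synthesis. S100b averaged 246 FPKM over the 8 arteries, Mbp 49.5 FPKM and Sox10 9.82 FPKM, whereas Th averaged 0.332 FPKM, Ddc 0.342 FPKM and Dbh 0.0937 FPKM. Npy, at 17.6 FPKM, was the exception among the neuronal genes, and Snap25 averaged 0.540 FPKM. In the kidney cortex the order was different: Ddc led at 31.9 FPKM, followed by Mbp at 4.42 FPKM, and the other 6 genes averaged under 1 FPKM.

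**Figure D1:**
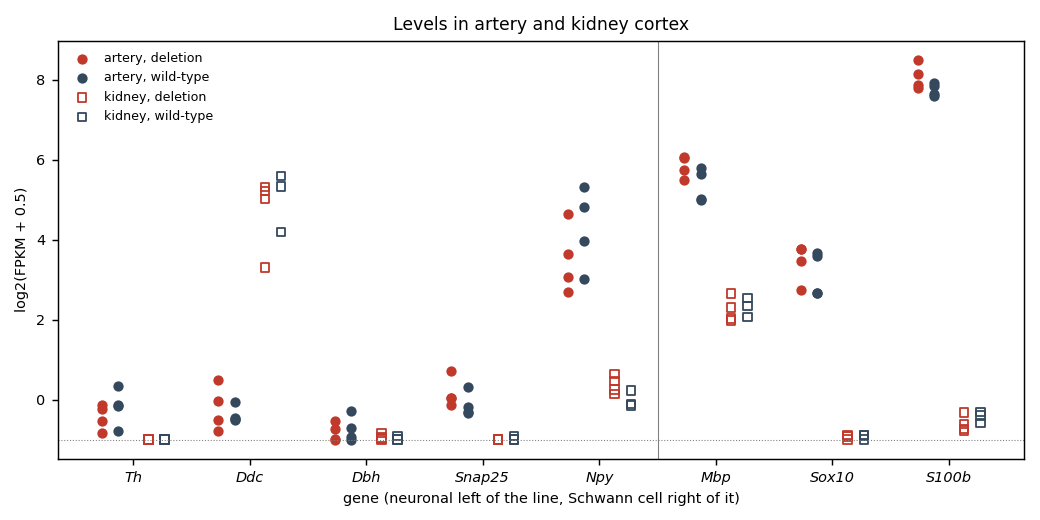
Level of each gene in every library, as log2(FPKM + 0.5), with arteries as filled circles left of kidneys as open squares and deletion (red) left of wild-type (dark). The dotted line marks a value of 0 FPKM. S100b, Mbp, Sox10 and Npy sit higher in all arteries than in any kidney, Ddc sits lower in all arteries than in any kidney, and Th, Dbh and Snap25 lie near the floor in both tissues.

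Th (chr1:198071500-198078832, rn7, minus strand) encodes the rate-limiting enzyme of catecholamine synthesis. Deletion arteries 1 to 4 had 0.408, 0.186, 0.0632 and 0.351 FPKM, and wild-type arteries 1 to 4 had 0.0830, 0.392, 0.409 and 0.766 FPKM. The groups overlapped, with the lowest library in deletion and the highest in wild-type. All 7 kidneys were listed at 0. The exact permutation test of mean FPKM, artery against kidney, gave an unadjusted two-sided p of 0.00155 (8 arteries, 7 kidneys). The Th promoter window of RefSeq (GRCr8, chr1:207508169-207508468, minus strand, 250 bases before to 50 bases after the start) is shown because it holds the cAMP response element for which this gene is known in the rat. The capitals mark TGACGTCA, a palindrome that reads alike on both strands, whose first base lies at -69 from the start. These letters occur in 1.83% of 33469 windows of that length and in 1 of the 9 windows found for 6 of the 8 genes.

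Th: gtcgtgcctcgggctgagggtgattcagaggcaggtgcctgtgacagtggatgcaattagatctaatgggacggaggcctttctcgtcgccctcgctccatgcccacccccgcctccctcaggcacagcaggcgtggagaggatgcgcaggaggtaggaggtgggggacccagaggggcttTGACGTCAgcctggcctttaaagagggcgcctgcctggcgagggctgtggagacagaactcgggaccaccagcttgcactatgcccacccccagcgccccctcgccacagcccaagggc

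Dbh (chr3:10488260-10505245, plus strand), the vesicle enzyme that turns dopamine into noradrenaline, was the lowest of the 8 in artery. Deletion arteries had 0.0988, 0.189, 0 and 0.00523 FPKM, and wild-type arteries had 0, 0.0240, 0.106 and 0.326 FPKM. A library of each genotype was listed at 0, so the groups overlapped over their whole lower range. Kidneys were listed at 0 to 0.0626 FPKM in deletion and at 0 to 0.0311 FPKM in wild-type, and artery against kidney did not pass the exact permutation test (unadjusted p = 0.0987).

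Ddc (chr14:86378685-86469189, minus strand) decarboxylates DOPA to dopamine in neurons and also in the kidney's proximal tubule, where dopamine promotes salt excretion. It was the only one of the 8 with its higher level in the kidney. Deletion kidneys 1 to 4 had 36.8, 9.39, 32.1 and 39.4 FPKM, and wild-type kidneys 1 to 3 had 17.8, 39.9 and 47.9 FPKM. Deletion kidney 2 was the lowest for Ddc and also for the summed proximal tubule markers, at 3137 FPKM against 4620 to 6063 FPKM in the other 6. Wild-type kidney 1, the next lowest for Ddc, had 4951 FPKM for that sum, above wild-type kidney 2 at 4620 FPKM. The order differed for the mean of log2(FPKM + 0.5) over the same markers. By that measure wild-type kidney 1, at 8.53, was the next lowest after deletion kidney 2, at 7.91, against 8.55 to 8.76 in the others. The part of tubule content in the Ddc values was not tested. Deletion arteries had 0.198, 0.469, 0.0830 and 0.894 FPKM, and wild-type arteries had 0.198, 0.216, 0.452 and 0.223 FPKM. No artery came near a kidney, and Ddc was lower in artery by 5.18 on the log2(FPKM + 0.5) scale (SE 0.30, limma, adjusted p = 2.84e-10). Of the 3 RefSeq windows for Ddc, the one farthest upstream (GRCr8, chr14:90682734-90683033, minus strand) is shown because it holds letters of an HNF1 site, the motif of a factor of kidney and liver epithelium. Its match to TTAAT and TTAAC separated by any 2 bases, searched on both strands, is in capitals and begins at -52 from the start. Such letters occur in 0.108% of the 33469 windows.

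Ddc: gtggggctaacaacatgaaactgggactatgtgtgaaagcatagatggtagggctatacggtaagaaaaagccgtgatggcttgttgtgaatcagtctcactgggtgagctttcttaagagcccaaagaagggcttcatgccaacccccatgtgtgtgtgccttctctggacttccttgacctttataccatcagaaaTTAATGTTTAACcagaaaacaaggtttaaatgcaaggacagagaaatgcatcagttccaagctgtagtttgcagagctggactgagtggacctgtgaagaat

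Snap25 (chr3:124041898-124123761, plus strand), whose RNA marks neurons and endocrine cells, had 0.416, 1.13, 0.519 and 0.537 FPKM in deletion arteries and 0.286, 0.313, 0.378 and 0.739 FPKM in wild-type arteries. Deletion artery 2 was the highest, and the groups overlapped. In kidney it was listed at 0 in all 4 deletion libraries and in wild-type 1 and 2, with 0.0307 FPKM in wild-type 3. The exact permutation test of artery against kidney gave an unadjusted p of 0.000311.

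Npy (chr4:78881294-78888495, plus strand) was the one neuronal gene with a sizeable artery level. Deletion arteries had 6.02, 7.87, 12.0 and 24.4 FPKM, averaging 12.6 ± 8.29 FPKM, and wild-type arteries had 27.5, 15.3, 7.54 and 39.7 FPKM, averaging 22.5 ± 14.1 FPKM (SD, n = 4 each). Its range across arteries was wide in both genotypes and the groups overlapped. Deletion kidneys had 0.687, 1.05, 0.877 and 0.606 FPKM, and wild-type kidneys had 0.405, 0.668 and 0.424 FPKM. Npy was higher in artery than in kidney by 3.72 on the log2(FPKM + 0.5) scale (SE 0.32, limma, adjusted p = 3.41e-08). In the rat, Npy is also made by megakaryocytes and carried in platelets.

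Among the Schwann cell genes, S100b (chr20:12372866-12381619, minus strand) was the most abundant. Deletion arteries had 233, 363, 283 and 222 FPKM, averaging 275 ± 64.3 FPKM, and wild-type arteries had 243, 231, 192 and 199.8 FPKM, averaging 217 ± 24.4 FPKM (SD, n = 4 each). Deletion arteries 2 and 3 lay above every wild-type artery, and deletion arteries 1 and 4 within the wild-type range. Kidneys held 0.102, 0.153, 0.298 and 0.0871 FPKM in deletion and 0.257, 0.304 and 0.166 FPKM in wild-type. S100b was higher in artery by 8.44 on the log2(FPKM + 0.5) scale (SE 0.11, limma, adjusted p = 9.71e-18). Rat adipocytes also make S100b, and the fat markers of these arteries are given beside it below.

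Mbp (chr18:75855878-75966404, plus strand) had 65.1, 44.3, 52.8 and 67.1 FPKM in deletion arteries, a mean of 57.3 ± 10.7 FPKM, and 31.3, 54.6, 31.7 and 49.2 FPKM in wild-type arteries, a mean of 41.7 ± 12.0 FPKM (SD, n = 4 each). The 2 highest arteries were deletion and the 2 lowest wild-type, with overlap between. Unlike Sox10, Mbp was well measured in kidney, at 4.46, 5.81, 3.59 and 3.45 FPKM in deletion and 5.33, 4.57 and 3.70 FPKM in wild-type. Other transcripts of the gene, the golli forms, are made outside myelin, for example in lymphocytes, and gene-level values do not separate them. The artery excess was 3.31 on the log2(FPKM + 0.5) scale (SE 0.15, limma, adjusted p = 1.19e-11).

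Sox10 (chr7:110725274-110734651, minus strand) had 13.1, 6.16, 10.6 and 13.1 FPKM in deletion arteries and 5.89, 12.3, 5.86 and 11.7 FPKM in wild-type arteries. The values fell into a low set of 3 arteries (deletion 2, wild-type 1 and wild-type 3) and a high set of 5, each with both genotypes. The low set is made of the 2 arteries richest in lymphocyte markers and the artery with intestinal markers. Every kidney was at or below 0.0434 FPKM, and 1 deletion and 1 wild-type kidney were listed at 0. The artery excess was 4.23 on the log2(FPKM + 0.5) scale (SE 0.19, limma, adjusted p = 9.66e-12).

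Of the 8 genes, 5 passed the filter of a mean of 0.5 FPKM over the 15 libraries. Npy and Mbp passed it in each tissue alone as well, and both were higher in artery in the limma fit. S100b and Sox10 passed only through artery, and Ddc only through kidney, so they had to differ and their folds and p-values above are a description. Over all 16856 genes tested, 77% were called, 41.8% higher and 35.2% lower in artery, so a difference between these tissues was the usual case. In the order of the 4 groups by mean, the neighbours of the same tissue overlapped in library range for every gene, and the neighbours of different tissues did not overlap for 7 of the 8, with Dbh as the exception. Of all genes past the filter, 50% had arteries and kidneys that did not overlap. Th and Snap25 did not overlap either, but they did not pass the filter and are not counted in that share. The 7 of 8 and the 50% thus rest on unlike sets of genes.

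**Figure D2:**
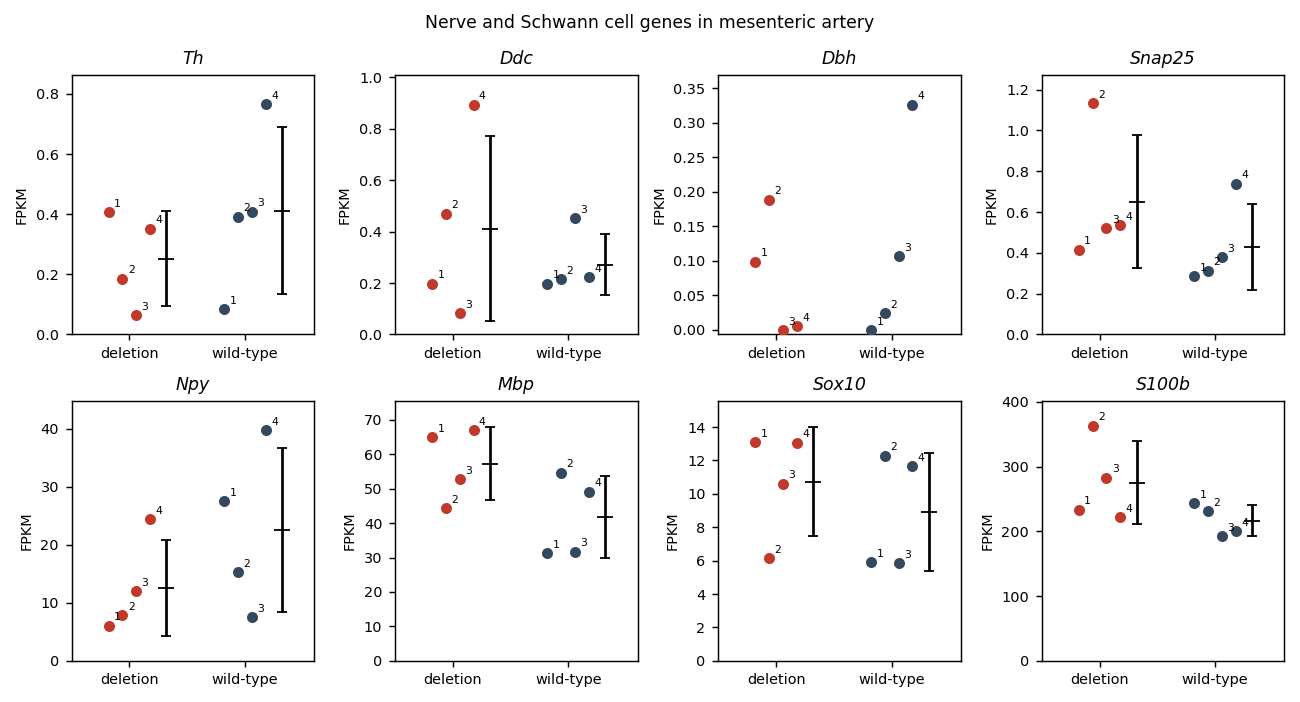
FPKM of each gene in the 4 deletion (red) and 4 wild-type (dark) arteries, numbered by replicate, with the mean and SD as a bar beside each group except for Dbh, where each group has a library listed at 0. The genotypes overlap for all 8 genes. Npy runs from 6.02 to 39.7 FPKM.

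The deletion was tested against wild-type in each tissue separately. In artery, 5 of the 8 genes passed the filter and none was called at an adjusted p under 0.05 (limma, Benjamini-Hochberg over 16470 genes, of which 0% were called). At an unadjusted p under 0.05 there was 1 of the 5, against 5.24% of all genes tested. That gene was Mbp, with a log2 fold change of 0.48 (SE 0.21, unadjusted p = 0.0498, adjusted p = 0.893), a ratio of 1.39, and a 95% interval on the log2 scale of 0.00047 to 0.96. For S100b the change was 0.32 (SE 0.18, adjusted p = 0.893), a ratio of 1.25 with an interval of 0.949 to 1.65. Sox10 was at 0.28 (SE 0.30, adjusted p = 0.910), so the 3 Schwann cell genes had the same sign, as did 59.7% of all genes tested. Among the neuronal genes, Snap25 was at 0.30 (SE 0.24, adjusted p = 0.898) and Npy at -0.77 (SE 0.53, adjusted p = 0.893), a ratio of 0.587 with an interval of 0.258 to 1.34. Snap25 passed the filter through the deletion group, at 0.651 ± 0.326 FPKM against 0.429 ± 0.210 FPKM in wild-type arteries (SD, n = 4 each), and missed it without deletion artery 2, so its value is a description. The intervals leave differences of either sign for all but Mbp, whose lower bound touches equality.

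Th, Ddc and Dbh were too low in artery for the fit. In the exact permutation test of mean FPKM, two-sided and unadjusted, with 4 arteries a group and a smallest possible p of 0.0286, they gave p = 0.343, 0.657 and 0.629. The same exact test gave p = 0.143 for both Mbp and S100b, 0.257 for Npy, 0.314 for Snap25 and 0.4 for Sox10. None of the 8 genes had groups that did not overlap, against 3.25% of all genes tested in artery.

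In kidney, 3 of the 8 genes passed the filter and none was called (limma, adjusted p = 0.999 for each, 0% of 15444 genes called, 1.41% at an unadjusted p under 0.05). None of the 8 had groups that did not overlap, against 2.55% of all genes tested in kidney. Npy was at 0.38 (SE 0.21). It averaged 0.806 FPKM in deletion and 0.499 FPKM in wild-type kidneys. Npy thus passed the kidney filter only through the deletion group, and its kidney change is a description. Ddc was at -0.32 (SE 0.50) and Mbp at -0.07 (SE 0.20). Ddc averaged 29.4 ± 13.7 FPKM in deletion kidneys (n = 4) and 35.2 ± 15.6 FPKM in wild-type kidneys (SD, n = 3). Leaving out each kidney in turn, the Ddc change ran from -0.75 to 0.15. The upper end was without deletion kidney 2, the lowest for Ddc, so the direction of that move was fixed by the choice. Artery effect minus kidney effect was called for none of the 5 genes tested (limma interaction, adjusted p of at least 0.943, 0% of 16856 genes called). Npy was at -1.15 and Mbp at 0.55, and the Npy value carries the kidney limit given above. S100b, at 0.50 (unadjusted p = 0.0391, against 4.39% of all genes under 0.05), Sox10, at 0.28, and Ddc, at 0.49, lay below the filter in 1 of the tissues, where the pseudocount largely sets the effect, so their values are a description.

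**Figure D3:**
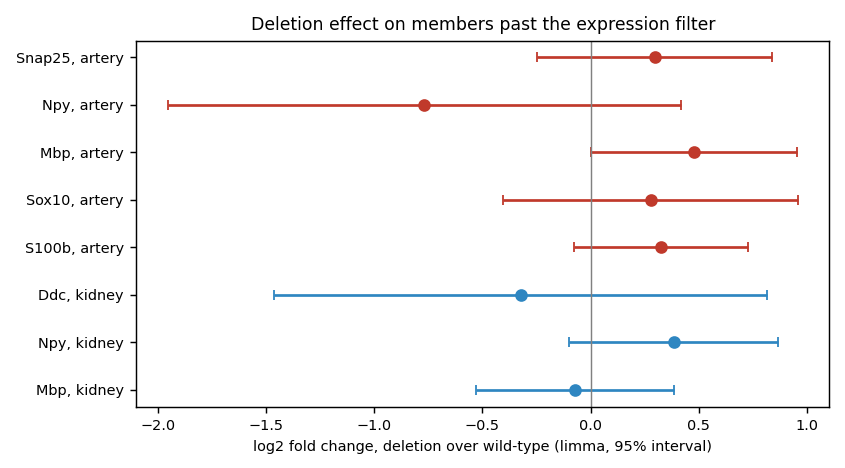
Log2 fold change, deletion over wild-type, with its 95% interval from limma, for the genes past the expression filter in artery (red) and kidney (blue). All intervals but that of Mbp in artery cross 0, and none of the 8 adjusted p-values is below 0.893.

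Several artery values moved with other cell types. In bulk tissue, fewer cells of a type and less RNA per cell cannot be told apart. Summed over 10 adipocyte markers, deletion arteries 1 to 4 had 1952, 3534, 2782 and 1896 FPKM, and wild-type arteries 1 to 4 had 2661, 1956, 1982 and 2153 FPKM. Deletion arteries 2 and 3, the highest for this sum, were also the highest for S100b. All 10 markers correlated positively with S100b over the 8 arteries (median Pearson r of log2 values 0.80), while its median r was -0.30 with 11 myelin proteins and -0.27 with 16 Schwann cell and glial factors. Without deletion artery 2 the S100b change in artery was 0.18. That artery is the highest for S100b and a deletion library, so the direction of the move was fixed by the choice. Adjusted for the mean adipocyte marker level, the S100b change in artery was 0.10. The same adjustment gave 0.64 for Sox10, 0.70 for Mbp and 0.14 for Snap25. All 10 adipocyte markers were themselves positive with the deletion in artery, so the adjustment cannot tell fat from the deletion. The part of fat in the S100b difference was not tested.

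For Npy the parallel was with blood cells. Summed over 5 megakaryocyte and platelet markers, deletion arteries had 9.41, 23.1, 27.3 and 67.3 FPKM, and wild-type arteries had 46.6, 33.5, 17.7 and 68.9 FPKM. The 3 arteries highest for this sum, deletion 4, wild-type 1 and wild-type 4, were the 3 highest for Npy. The median r of Npy was 0.83 with the 3 platelet markers tested and 0.93 with 5 erythroid markers, against 0.05 with 8 axonal genes and -0.04 with 11 genes of noradrenaline handling. Without wild-type artery 4 the Npy change was -0.42, and without wild-type artery 3 it was -1.19. These were the highest and the lowest wild-type arteries for Npy, so the direction of each move was fixed by the choice. Whether blood accounts for any of the Npy difference was not tested.

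Mbp and Sox10 varied together across arteries. Their r was 0.91 over the 8 arteries (exact permutation p = 0.000298, adjusted over 28 pairs 0.00833) and Spearman's rho 0.93 (exact p = 0.00223, adjusted 0.0625). Without wild-type arteries 1 and 3, the farthest from the median Mbp, r was 0.80 (exact p = 0.0111). Since Sox10 fell into sets of 3 and 5 arteries, each under 6, no r is given within a set. It was the 1 pair of 28 with an adjusted p under 0.05 for r. Mbp with S100b was at 0.06 and Sox10 with S100b at -0.27, so the 3 Schwann cell genes did not form a single pattern. The 10 neuronal pairs ran from -0.06 to 0.66 with a median of 0.15, the highest being Th with Dbh (exact p = 0.0761, adjusted 0.540), and none passed.

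**Figure D4:**
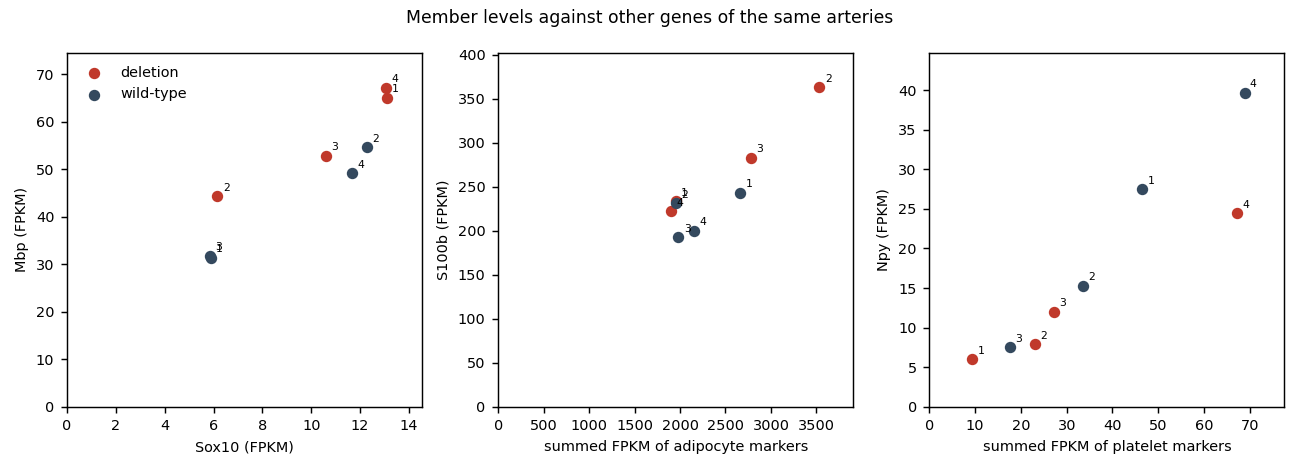
Each point is 1 artery, numbered by replicate, deletion in red and wild-type in dark, and all axes are in FPKM. Mbp is plotted against Sox10 (left), S100b against the summed adipocyte markers (middle) and Npy against the summed platelet markers (right). Sox10 shows a gap between 6.16 and 10.6 FPKM, deletion artery 2 is highest for both S100b and adipocyte markers, and wild-type artery 4 is highest for both Npy and platelet markers.

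The genes most like each member, taken from the 5 of highest r among 16470 genes over the 8 arteries, are a description with no test. For Npy they were Mpig6b (r = 0.98), an inhibitory receptor of megakaryocytes and platelets, F2rl2, a protease-activated receptor, Thsd1, Tubb1, the beta-tubulin of platelets, and Tax1bp1. Those of S100b were Tnpo3 (0.98), Clmp, a cell adhesion molecule first described in adipocytes, Copa, Pde1b and Fitm2, a lipid droplet protein. Sox10 was followed by Sorcs1 (0.998), Prnp, Plekha4, Mlip and Matn2, and Mbp by Mmp15 (0.99), Pllp, a myelin proteolipid, Apc2 and Zbtb47. For Th, at its low level, Ramp3 (0.92), Gnptab, Nrtn, a ligand of the GDNF family, and LOC102555634 were among them, and for Dbh RT1-CE14 (0.95), Igtp, an interferon-induced GTPase, Pdk3, Blm and Nadk2.

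**Figure D5:**
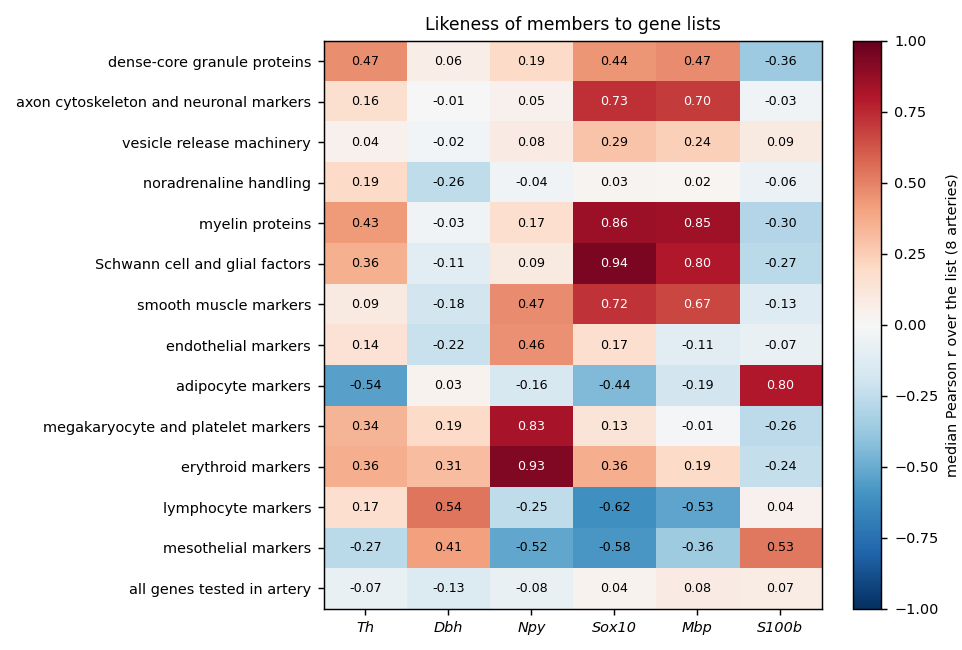
Median Pearson r, over 8 arteries, of each gene (columns) with the tested genes of a list (rows), with all genes tested in the bottom row, and colour from -1 (blue) to 1 (red). Sox10 and Mbp are highest with Schwann cell and myelin genes (0.80 to 0.94), S100b with adipocyte markers (0.80) and Npy with erythroid and platelet markers (0.93 and 0.83).

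Sox10 and Mbp, unlike S100b, had high median r with other Schwann cell genes, over arteries that fall into the sets of 3 and 5 described for Sox10. The median r of Sox10 was 0.94 with 16 Schwann cell and glial factors, 14 of them positive, and 0.86 with 11 myelin proteins, 10 of them positive. Mbp gave 0.80 and 0.85. Both were also positive with smooth muscle markers (0.72 for Sox10, 0.67 for Mbp) and axonal genes (0.73 and 0.70), and negative with lymphocyte markers (-0.62 and -0.53). Over all genes tested the median r was 0.04 for Sox10 and 0.08 for Mbp. Dbh had its highest listed median with lymphocyte markers (0.54), and Th none above 0.47.

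The rest of the nerve was read from 11 lists of 145 genes. In artery 95 of them were tested, deletion against wild-type, with 0 called and 5 at an unadjusted p under 0.05, against 5.24% of all genes. In kidney 67 were tested, with 0 called and 0 at an unadjusted p under 0.05, against 1.41% of all genes. Over all genes tested the median log2 fold change was 0.04 in each tissue, and 59.7% were positive in artery. The counts of artery against kidney below include genes that passed the filter through a single tissue, so they are a description.

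Of the noradrenaline handling genes, 11 of 16 were tested in artery and 7 were positive (median 0.05). The vesicle transporter Slc18a2 averaged 2.62 ± 0.587 FPKM in deletion and 3.41 ± 0.458 FPKM in wild-type arteries (SD, n = 4 each), a log2 change of -0.34 (adjusted p = 0.893). Maoa, which degrades noradrenaline, was at 0.26. Against kidney, 4 of 11 were higher in artery and 6 lower: on the log2 scale Slc18a2 was at 0.72 and Maoa at 1.06 (limma, adjusted p of 0.00045 and 1.47e-08). Slc6a2, the noradrenaline transporter of the sympathetic axon, falls outside the naming rule and was picked after its values were seen: it was at 0.0794 to 0.672 FPKM in arteries and listed at 0 in all 7 kidneys.

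Among factors of sympathetic identity, 6 of 11 were tested in artery, 3 positive and 3 negative (median 0.01). Gata3 averaged 0.348 ± 0.112 FPKM in deletion and 0.765 ± 0.196 FPKM in wild-type arteries, a log2 change of -0.57, and Isl1 averaged 1.64 ± 0.216 FPKM in deletion and 1.03 ± 0.341 FPKM in wild-type arteries, a change of 0.51 (SD, n = 4 each). Their unadjusted p-values were 0.0148 and 0.0284, and both had an adjusted p of 0.893. Gata3 passed the filter only through the wild-type group. Hand2 was at 3.50 FPKM over arteries and listed at 0 in every kidney, while Gata2 averaged 6.96 FPKM over arteries and 3.09 FPKM over kidneys. With the deletion, Gata2 was at -0.18 and Hand2 at 0.12.

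Axonal genes were positive in all 8 tested of 16 in artery (median 0.21, 0 called), where 59.7% of all genes were positive. Peripherin (Prph), an intermediate filament of peripheral neurons, averaged 4.37 ± 2.67 FPKM in deletion and 1.88 ± 0.487 FPKM in wild-type arteries (SD, n = 4 each), a change of 0.91 (unadjusted p = 0.0239, adjusted p = 0.893). Gamma-synuclein (Sncg) was at 0.49 (adjusted p = 0.893) and Map1b at 0.01. In artery against kidney 8 of 9 were higher and 1 lower, with Sncg at 94.7 FPKM over arteries and 1.26 FPKM over kidneys, and Map1b at 19.7 FPKM and 1.03 FPKM. Bulk values do not tell which cells made these RNAs. The sum of the list was highest in deletion artery 2 (191 FPKM), also the highest for adipocyte markers. Next came deletion artery 4 (151 FPKM), the lowest for adipocyte markers. The part of fat in the Sncg values was not tested.

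Vesicle release genes were positive in 11 of 18 tested in artery (median 0.14, 0 called). Vamp3, a vesicle protein of most cells, was at 0.16, Vamp2, the main vesicle fusion protein of synapses, at -0.03 and Snap23, the broadly expressed relative of Snap25, at -0.16. The synaptic Rims1 was at 0.49 (adjusted p = 0.893) with a mean of 0.852 FPKM over arteries. Against kidney, 11 of 15 were higher and 4 lower in artery. Snap23 ran opposite to Snap25, at 25.7 FPKM over arteries and 46.0 FPKM over kidneys (log2 change -0.82, adjusted p = 5.27e-08). Dense-core granule proteins, which package peptides such as Npy, were positive in 3 of 5 tested (median 0.02), with Scg3 at 0.37, Cpe at 0.08, Pam at -0.06 and Pcsk1 at -0.32. In artery against kidney 3 were higher and 1 lower of 5. Pcsk1, at 0.437 FPKM in deletion and 0.672 FPKM in wild-type arteries, passed the artery filter only through the wild-type group, so its deletion change is a description.

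Of the neuropeptide Y system 2 of 7 were tested beside Npy. Npy1r, the receptor through which Npy constricts vessels, averaged 14.1 FPKM over arteries and 0.221 FPKM over kidneys, with a deletion change of -0.14 in artery. It was 4.33 higher in artery than in kidney on the log2 scale (limma, adjusted p = 1.4e-12). Npy1r passed the filter only through artery, so that fold and p-value are a description. Dpp4, a peptidase that trims Npy, ran the other way, at 5.16 FPKM over arteries and 135 FPKM over kidneys, with a deletion change of 0.05 in artery. Sensory and other perivascular axons were represented by 3 tested of 13, Nos1 at -0.05, Trpv1 at 0.30 and Scn9a at 0.15. Neurotrophic and guidance genes were positive in 5 of 10 (median 0.01), with the neurotrophin co-receptor Sort1 at 0.27 (unadjusted p = 0.0486, adjusted p = 0.893), Nrp1 at 0.03 and Sema3a at 0.21.

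Myelin proteins other than Mbp were positive in 10 of 11 tested in artery (median 0.30, 0 called), against 59.7% of all genes. Their summed level was 213 FPKM in deletion artery 2, 221 FPKM in wild-type artery 1 and 218 FPKM in wild-type artery 3, and 340 to 449 FPKM in the other 5. These are the arteries rich in lymphocyte or intestinal markers, 1 deletion and 2 wild-type, and the part of that imbalance in the count was not tested. Pmp22 averaged 102 ± 18.1 FPKM in deletion and 98.8 ± 14.8 FPKM in wild-type arteries (SD, n = 4 each), a change of 0.04. Cnp was at 0.35 and Mag at 0.53. Mag, at 0.866 FPKM in deletion and 0.385 FPKM in wild-type arteries, passed the filter only through the deletion group. Its value is therefore a description, and it is among the genes counted as positive. Schwann cell and glial factors were positive in 15 of 16 (median 0.23, 0 called), and their sum was low in the same arteries, at 405 FPKM in deletion 2, 435 FPKM in wild-type 1 and 364 FPKM in wild-type 3, against 607 to 833 FPKM in the other 5. The 1 negative gene, at 0.494 FPKM in deletion and 0.591 FPKM in wild-type arteries, passed the filter only through the wild-type group. Its sign is therefore a description. Scn7a, a sodium channel of non-myelinating Schwann cells, averaged 292 ± 123 FPKM in deletion and 228 ± 89.5 FPKM in wild-type arteries (SD, n = 4 each), a change of 0.32, and Art3 averaged 107 ± 6.83 FPKM in deletion and 78.0 ± 11.02 FPKM in wild-type arteries (SD, n = 4 each), a change of 0.46 (SE 0.13, unadjusted p = 0.00594, adjusted p = 0.893). Aspa was at 0.21. Smooth muscle and adipocyte markers were positive as well, in 5 of 5 (median 0.14) and 10 of 10 (median 0.21), with 0 called in each.

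In artery against kidney, 6 of 10 myelin proteins were higher and 2 lower, and 12 of 16 Schwann cell and glial factors were higher and 4 lower. Scn7a had the widest gap of the genes named from these lists, with 260 FPKM over arteries and 0.386 FPKM over kidneys (log2 change 8.13, adjusted p = 5.96e-14). Scn7a passed the filter only through artery, so that fold and p-value are a description. Aspa, an enzyme of acetylaspartate breakdown, was among those lower in artery, at 24.4 FPKM against 114 FPKM in kidney. Perineurial and endoneurial markers were positive with the deletion in 3 of 6 (median 0.02), with Itgb4 at 0.11, Cldn1 at -0.38 and Krt19, a keratin that also marks mesothelium, at 0.97 (adjusted p = 0.898). Of 7 such markers, 2 were higher and 5 lower in artery than in kidney, where epithelium shares several of them.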

How the data were processed

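Total RNA of 15 libraries was sequenced, and the authors deposited 1 table of FPKM values. Per the submitters' processing notes, the build was rn7 and the tools DESeq2 1.46.0, HISAT2 2.2.1 and Trim Galore 0.6.2, each without a stated role. The tool that made the FPKM values and whether strand was used are not given in the sources used here, so reads of overlapping genes on opposite strands cannot be told apart. Of 40694 rows, 6337 carry no identifier. Another 1 column of values matched no sample and was not used. Groups come from the sample titles. Values were analysed as log2(FPKM + 0.5), which understates changes of low genes. Genes averaging 0.5 FPKM or more were fitted with limma 3.58.1 in R 4.3.3 (trended, robust moderation, two-sided) and adjusted by Benjamini-Hochberg over all genes, called under 0.05. The fits were also run on simulated data with independent noise. Those data lack the differences in cell content seen between arteries, so no conclusion is drawn from them. Exact permutation tests compared mean FPKM of single genes, and gave the p-values of r and rho for the 28 pairs over 8 arteries. Ranks and the limits of the 95% intervals used scipy 1.17.1. The members and lists were chosen with earlier results of these data known. Named were all 8 genes, from each list the 2 of highest artery mean and the 2 of smallest p in artery, and the 5 genes most like a member, of which a few are not reported here. Promoters come from RefSeq. Alternatives covered pseudocount, filter, scaling, moderation, weights, replicate block, covariates and libraries left out. Precision is limited by 3 to 4 libraries a group, and the depth is unknown.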

Additional observations from a re-analysis of the deposited data

Results flagged for a closer look

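In 2 of 22 groups of 4 libraries, a library lay far from the others by Dixon's test, and chance gives about 1 in 20. Snap25 was at 1.13 FPKM in deletion artery 2, against 0.416 to 0.537 FPKM in the other 3 deletion arteries. Ddc was at 0.452 FPKM in wild-type artery 3, against 0.198 to 0.223 FPKM in the other 3 wild-type arteries. These are the 2 arteries with the highest summed lymphocyte markers, at 86.7 FPKM in deletion artery 2 and 119.6 FPKM in wild-type artery 3, and the part of lymphocytes in either value was not tested.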

How the results depend on the processing

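In 303 fits of the genes in the deletion comparisons, over all settings, 0 gave an adjusted p under 0.05, and the smallest was 0.186. The tissue differences of Npy, Mbp, Sox10, S100b and Ddc kept their sign and call in all settings. Over all genes, calls in artery, 0 as reported, were 1 with a pseudocount of 0.1, 1 with the lymphocyte list as a covariate (chosen after seeing the data, as were the settings without 2 arteries) and 0 to 1 without each library in turn, with 1 without wild-type artery 2 or deletion artery 3. In kidney, 0 as reported, they were 1 with no filter, 1 in a fit over the 4 groups, 282 with array weights and 0 to 1 without each library, with 1 without wild-type kidney 1. The cause was not tested. Calls of artery against kidney ran from 12580 to 13127 without each library and from 11611 to 15795 otherwise, and the interaction gave 0 throughout. Whether replicate numbers pair the libraries is not known. Same-numbered deviations correlated at 0.32, -0.34, 0.24 and 0.30 in artery, where differently numbered ones ran from -0.45 to 0.45. In kidney the same-numbered values were 0.08, -0.008 and 0.27. So few values cannot decide the question. The replicate block left calls at 0 in artery, 0 in kidney and 13082 between tissues, and turned Mbp in kidney to 0.015. Npy in artery turned to 0.020 without wild-type arteries 1 and 4, which are the highest 2 for Npy and both wild-type, so the direction of that move was fixed by the choice. The r of Dbh with Npy turned to -0.064 with a pseudocount of 0.1, and that of Mbp with S100b to -0.068 with median-of-ratios scaling. Without each library in turn, pairs past the threshold ran from 1 to 2, the second being Th with Dbh (r = 0.83, adjusted p = 0.0111) without deletion artery 2. Signs turned within these ranges: in FPKM, Ddc in artery (-0.0221 to 0.248), Dbh in artery (-0.0795 to 0.0297), Dbh in kidney (-0.00071 to 0.0229) and Sox10 in kidney (-0.0123 to 0.00838), and on the log2 scale, Ddc in kidney (-0.75 to 0.15) and Mbp in kidney (-0.21 to 0.040). For r they were Sox10 with S100b (-0.64 to 0.19), Mbp with S100b (-0.27 to 0.25), Th with Npy (-0.34 to 0.49) and Dbh with Npy (-0.79 to 0.23). The Dbh tissue difference gave an exact permutation p of 0.0478 without deletion artery 3 or wild-type artery 1. The Sox10 change in artery was 0.12 without wild-type artery 1 or 3 and 0.51 without deletion artery 2. These are the low arteries of their groups for Sox10, so the direction of each move was fixed by the choice. Without deletion artery 2, Snap25 missed the filter and has no value. Levels near 0 FPKM, with depth unknown, limit Th, Ddc and Dbh in artery.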
